A study of Mus musculus with 18 samples.

Results

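The genes described here are 10 germline genes, genes whose products normally work in developing eggs and sperm: Sohlh2, Dazl, Ddx4, Mael, Hormad1, Sycp3, Taf7l, Slc25a31, Tex101 and Tuba3b. They were chosen by symbol with measured values of these libraries known, Sohlh2 being named for its rise in Nsd1-KO cells at day 2 and 4, and all 10 were present among the 20703 genes of the deposited expression table. For that reason the differences between KO and WT of these genes are a description, no p is given for them, and counts of them past a threshold are not a test. RNA-seq was performed on polyA RNA of E14 cells, a line of mouse embryonic stem cells (mESCs), that were either WT or carried a homozygous deletion of exon 5 of Nsd1, which encodes a histone methyltransferase that places dimethylation on lysine 36 of histone H3. The 2 KO lines, Nsd1-KO-1 and Nsd1-KO-2, are each a single clone, made by cutting in introns 4 and 5 in E14 cells whose endogenous Nsd1 carried a Flag tag. Whether the WT cells of the RNA-seq also carried the tag is not stated in the labels. All groups were grown with LIF on feeder fibroblasts (MEF) and collected either in that state (day 0) or 2 or 4 days after LIF and MEF were taken away, with 2 biological replicates for each line and day, which gave 2 WT and 4 KO libraries per day and 18 in all. The labels call the replicates biological and the supplement of the study calls them independent, neither naming what was separate, and the p-values below measure the spread between these libraries.

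Germline genes are kept off in most cells of the body. Many of them have CpG-rich promoters that become methylated by the DNA methyltransferases DNMT3A and DNMT3B as the early embryo leaves the pluripotent state, and before that a variant Polycomb complex, brought to DNA by MGA with its partner MAX and by E2F6, and the H3K9 methyltransferases SETDB1 and EHMT2 hold them down. mESCs grown with serum and LIF are known to carry some of these transcripts, in part from a small fraction of cells that resemble earlier stages. Among the genes studied here, Sohlh2 encodes a transcription factor of early germ cell differentiation, Dazl, Ddx4 and Mael encode RNA-binding or piRNA pathway proteins of germ granules, Hormad1 and Sycp3 encode parts of the axis of meiotic chromosomes, and Taf7l, Slc25a31, Tex101 and Tuba3b are expressed in spermatogenic cells.

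The promoters are shown first, because the 10 genes included some that were higher and some that were lower in KO mESCs before differentiation, so that their sequences can be set beside the values. Windows from 250 bases before to 50 bases after the start of each gene came from RefSeq on GRCm38.p6 and matched all 10 genes. They were searched on both strands for the palindromic E-box CACGTG, a word that MGA and MAX can bind, and for TCCCGC or its complement GCGGGA, a word of the E2F type, which can share at most 1 letter with the E-box. The E-box was in 6 of the 10 windows (Ddx4, Mael, Hormad1, Sycp3, Taf7l and Slc25a31), against 7.24% of the 27025 promoters in the RefSeq table and 9.63% of the 13448 that belong to genes of the expression table. The E2F-type word was in 6 windows as well (Ddx4, Mael, Hormad1, Sycp3, Slc25a31 and Tuba3b), against 20.02% and 33.2%. Both words were held by 5 windows (Ddx4, Mael, Hormad1, Sycp3 and Slc25a31), against 2.05% and 3.62%, while the windows of Sohlh2, Dazl and Tex101 held neither. Of the promoters of 64 other germline genes, 21.9% held the E-box, 34.4% the E2F-type word and 7.81% both. Each window had between 15 and 38 CpG dinucleotides, with a median of 20.5, against 7 over the promoters of the RefSeq table, 19 over those of genes in the expression table and 14 over those of the 64 other germline genes.

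The stretches of 230 bases before the first annotated exon base of 4 genes are printed 5′ to 3′ on the strand of the gene, with the searched words in capitals. They belong to the genes with the highest (Sohlh2 and Hormad1) and the lowest (Mael and Dazl) ratio of KO to WT at day 0 among those with a WT mean over 100 normalized counts. In GRCm38.p6 they lie at chr3:55181798-55182027 on the plus strand, chr3:95559447-95559676 on the plus strand, chr1:166238748-166238977 on the minus strand and chr17:50293637-50293866 on the minus strand. The last printed base was counted from the base before the gene start used for the windows above. It lies at -16 in Sohlh2 and Dazl, -3 in Mael and 0 in Hormad1.
Sohlh2: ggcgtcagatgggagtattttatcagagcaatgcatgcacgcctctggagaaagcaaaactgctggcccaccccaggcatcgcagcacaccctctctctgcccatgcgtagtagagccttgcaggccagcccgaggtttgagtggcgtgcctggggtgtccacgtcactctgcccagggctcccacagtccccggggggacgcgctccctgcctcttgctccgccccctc
Hormad1: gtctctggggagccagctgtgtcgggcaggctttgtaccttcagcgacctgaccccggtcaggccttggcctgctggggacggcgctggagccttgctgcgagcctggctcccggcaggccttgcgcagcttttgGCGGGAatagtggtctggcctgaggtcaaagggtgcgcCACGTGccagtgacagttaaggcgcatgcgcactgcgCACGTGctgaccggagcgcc
Mael: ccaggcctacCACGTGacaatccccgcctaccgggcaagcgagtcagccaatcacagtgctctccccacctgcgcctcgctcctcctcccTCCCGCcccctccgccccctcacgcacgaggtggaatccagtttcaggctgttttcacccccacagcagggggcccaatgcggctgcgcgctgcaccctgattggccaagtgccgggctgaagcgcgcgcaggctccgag
Dazl: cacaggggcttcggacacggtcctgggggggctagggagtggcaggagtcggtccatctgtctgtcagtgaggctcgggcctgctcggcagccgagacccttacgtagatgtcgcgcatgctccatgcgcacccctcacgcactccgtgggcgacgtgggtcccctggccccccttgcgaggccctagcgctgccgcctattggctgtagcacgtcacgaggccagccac
Hormad1, which was higher in KO, and Mael, which was lower, both show capitals. Sohlh2 and Dazl, which moved in opposite directions as well, show none. A match of letters is a description of the promoter and no evidence of binding, and its absence says only that these words are not in these bases.

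Nsd1 transcripts were less abundant in every KO library, and exon 5 itself was not measured, as the table holds whole genes. Nsd1 had normalized counts (the recovered counts divided by the size factors of the authors) of 3374 and 3660.0 in WT, 837 and 711 in KO-1, and 689 and 635 in KO-2 at day 0, and its mean at day 4 was 2268 ± 222 in WT (SD, n = 2) and 818 ± 236 in KO (SD, n = 4). All 4 KO libraries were below both WT libraries at every day. The depth was 9309874 to 23921193 counts per library. The WT libraries of day 2 were the shallowest, with 9309874 and 9356867, against 14595828 to 19445827 in the KO libraries of that day, so weak genes were less well measured there in WT. Of the counts from 1 to 20, 74.9% were even. The reason was not found, and the lowest values below should be read with that in mind.

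The question for these genes is whether they were derepressed, that is more abundant, in cells without Nsd1. At day 0 the 4 KO values exceeded both WT values for 3 of the 10 genes and were below both for 4, where 23.1% and 24.3% of all 20703 genes did the same. At day 2 the KO libraries lay above WT without overlap for 2 genes and below for 6, against 26.2% and 31.4% of all genes. At day 4 they lay above WT for 8 genes and below for 1, Tex101, against 23.9% and 25.9% of all genes. The median log2 difference of the 10 genes was -0.01, -0.16 and 0.38 at day 0, 2 and 4, and that of all genes was -0.02 at day 2 and nearer to 0 at the other days. These differences are on the log2 scale of the deposited variance stabilized (VST) values, on which those of weak genes are compressed.

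Other genes are called below where the adjusted p in limma was under 0.01 and the log2 fold change exceeded 0.58 in size. That log2 fold change is a difference of VST values. It is compressed against the ratio of the mean counts printed beside it, most where a group is weak. The values of Sohlh2 and Mael at day 0, of Sohlh2, Hormad1 and Mael at day 2 and of Sohlh2, Ddx4, Hormad1 and Slc25a31 at day 4 were past that threshold, Mael on the lower side and the others on the higher. Of all genes, 1.73% were called higher and 0.879% lower at day 0, 4.01% and 2.37% at day 2, and 3.67% and 3.91% at day 4. On the limma-voom scale, which compresses weak genes less, 3 of the 10 were past it on the higher side and 4 on the lower at day 0, 2 and 5 at day 2, and 6 and 0 at day 4, and their median log2 difference was -0.32, -0.91 and 2.12 (all genes -0.03, -0.14 and 0.00). By limma-voom 6.43% of all genes were called higher and 6.86% lower at day 0, 10.3% and 13.6% at day 2, and 10.9% and 13% at day 4. Because the 10 genes were chosen on these libraries, nothing is read from their counts. In bulk RNA, fewer cells with a transcript and less of it per cell cannot be told apart.

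**Figure D1:**
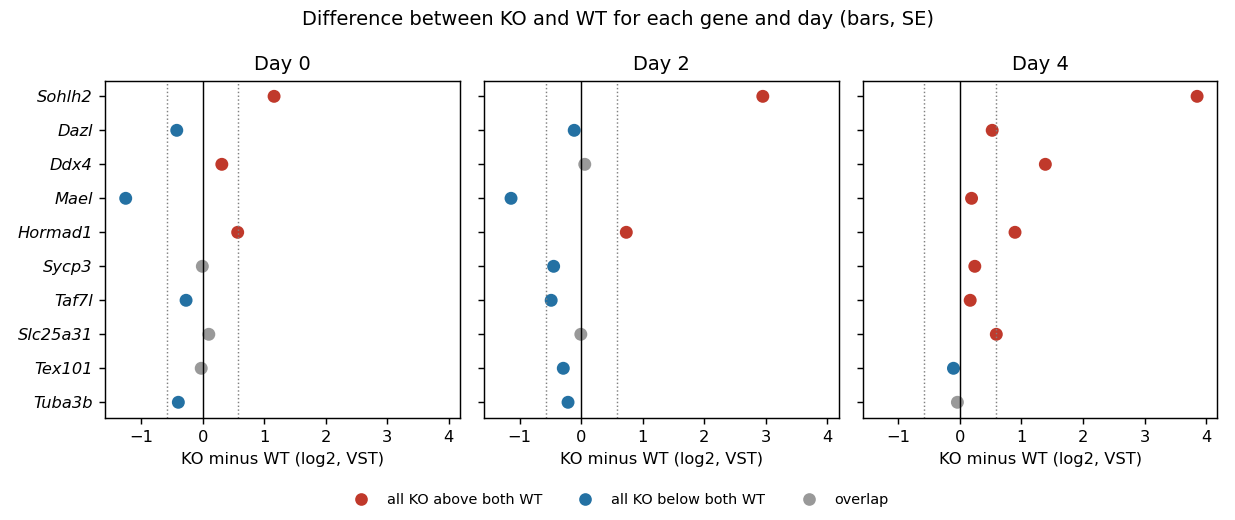
Difference between KO and WT for each of the 10 genes (KO minus WT, log2 of the VST values) at day 0, 2 and 4. Points are fitted differences, red where every KO value exceeded both WT values, blue where every KO value was below them and grey where they overlapped, with bars of 1 SE that are mostly hidden by the points and dotted lines at 0.58 in either direction. Blue points are spread over day 0 and day 2, while at day 4 red holds for 8 of the 10 genes.

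Sohlh2 encodes a basic helix-loop-helix transcription factor that drives the differentiation of spermatogonia and young oocytes, and it had the largest difference of the 10 genes at day 2 and day 4. At day 0 its normalized counts were 706 and 757 in WT, 2236 and 2365 in KO-1, and 2238 and 2361 in KO-2, so the KO mean was 3.14 times that of WT. At day 2 they were 143 and 149 in WT, 4303 and 4287 in KO-1, and 4329 and 4092 in KO-2, a ratio of 29.1. By day 4 WT was down to 2 and 0 counts, while KO had normalized counts of 3749 and 4157 in KO-1, and 4668 and 4698 in KO-2. With WT set to a floor of 3 counts per library, KO was at least 1758-fold higher at day 4. The transcript was thus measured in WT mESCs and was almost gone after 4 days, whereas the KO libraries were higher at day 2 than at day 0 and overlapped between day 2 and day 4, and no KO library overlapped with a WT library. On the VST scale the differences were 1.16 ± 0.07, 2.95 ± 0.07 and 3.85 ± 0.07 (log2 ± SE) at day 0, 2 and 4.

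Ddx4, the mouse Vasa, is an RNA helicase of germ granules. Its normalized counts at day 0 were 310.3 and 347 in WT, 560.5 and 500.2 in KO-1, and 460.5 and 528 in KO-2, higher in all KO libraries by 1.56-fold on average. At day 2 they were 557 and 567 in WT, 651 and 683 in KO-1, and 534 and 556 in KO-2, and the groups overlapped. At day 4 they were 237 and 250.04 in WT, 1536 and 1317 in KO-1, and 1301 and 1388 in KO-2, a ratio of 5.68 without overlap. Ddx4 was the one gene besides Sohlh2 whose KO libraries at day 4 were all above those at day 0.

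Dazl encodes an RNA-binding protein that controls translation in germ cells. At day 0 it had normalized counts of 451 and 443 in WT, 255 and 318 in KO-1, and 195 and 176 in KO-2, so it was lower in every KO library, with a WT mean 1.89 times that of KO. At day 2 the values were 163 and 146 in WT, 145 and 140.3 in KO-1, and 96.7 and 99.1 in KO-2, still lower in KO but by a small margin that was lost when all libraries were thinned to the same depth. At day 4 the order had turned, with 8.05 and 3.79 in WT, 108 and 74.3 in KO-1, and 71.4 and 78.4 in KO-2, and the KO mean was 14.04 times that of WT, or 21.9 times without WT replicate 1, and the WT values rested on 8 and 6 counts. In WT the day 4 mean was 1.32% of that at day 0, while KO kept 35.2%.

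Mael encodes Maelstrom, a protein of the piRNA pathway that silences transposons, and it was the clearest case of a lower level in KO. At day 0 its normalized counts were 1151 and 886 in WT, 179.9 and 218 in KO-1, and 153 and 163 in KO-2, 5.72 times higher in WT on average. At day 2 they were 619 and 588 in WT, 93.6 and 94.5 in KO-1, and 65.5 and 56.9 in KO-2, 7.78 times higher in WT. At day 4 they were 38.2 and 41.7 in WT, 72.2 and 98.7 in KO-1, and 68.6 and 69.3 in KO-2, which put all KO libraries above WT by 1.93-fold on average. The KO values were nearly the same at day 2 and day 4, with overlapping libraries, while both WT libraries were lower at day 4 than at day 2. The log2 differences on the VST scale were -1.25 ± 0.07, -1.14 ± 0.07 and 0.19 ± 0.07 (± SE).

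Hormad1 binds the unsynapsed axes of meiotic chromosomes, where it promotes the formation of double-strand breaks. At day 0 its normalized counts were 224 and 214 in WT, 512 and 569 in KO-1, and 500.4 and 513 in KO-2, a ratio of 2.39. At day 2 they were 58.7 and 53.5 in WT, 337 and 289.7 in KO-1, and 275 and 286 in KO-2, a ratio of 5.30. At day 4 the WT libraries had 0 and 0 counts and KO had normalized counts of 106 and 113 in KO-1, and 149 and 159 in KO-2, which is at least 53.7-fold higher when WT is set to 3 counts per library. Hormad1 was higher in KO at each of the 3 days without overlap, as was Sohlh2 alone of the other 9 genes. Unlike Sohlh2, it was lower in both genotypes from each day to the next, and its day 4 level in KO was 25.2% of that at day 0.

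Sycp3 is a core component of the axial elements of the synaptonemal complex. Its normalized counts at day 0 were 150.1 and 168 in WT, 154 and 167 in KO-1, and 152 and 158 in KO-2, and the genotypes overlapped. At day 2 it was 272 and 222 in WT, 124 and 112 in KO-1, and 69.4 and 79.03 in KO-2, lower in all KO libraries, with a WT mean 2.57 times that of KO. At day 4 it was 56.4 and 47.4 in WT, 98.1 and 118 in KO-1, and 102 and 109 in KO-2, higher in all KO libraries by 2.06-fold. Sycp3 overlaps Chpt1 on the opposite strand in the GRCm38 annotation, and the library kit does not mark strand, so reads in the shared part cannot be assigned to one of them.

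Taf7l encodes an X-linked germ cell relative of the general transcription factor subunit TAF7. Its normalized counts were 74.6 and 58.99 in WT, 35.3 and 21.3 in KO-1, and 10.6 and 26.2 in KO-2 at day 0, and 97.8 and 84.3 in WT, 19.5 and 14.2 in KO-1, and 6.24 and 6.32 in KO-2 at day 2, when the WT mean was 7.86 times that of KO. At day 4 they were 8.05 and 5.05 in WT, 22.6 and 21.2 in KO-1, and 19.6 and 23.7 in KO-2. The genotypes did not overlap at any day, and the order turned at day 4, when the WT values rested on 8 and 8 counts.

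Slc25a31, the ADP/ATP carrier of testis mitochondria, overlapped between the genotypes at day 0 and day 2, with means of 46.1 ± 8.28 in WT (SD, n = 2) and 66.2 ± 19.5 in KO (SD, n = 4) at day 0. At day 4 WT was at 0 and 0 counts. The normalized counts in KO were then 56.4 and 39.7 in KO-1, and 53.2 and 78.4 in KO-2, at least 23.2-fold higher against the floor, and the KO mean was 86.03% of that at day 0. After thinning to 1 depth the KO libraries of day 0 also lay above WT.

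Tex101, a surface protein of germ cells, and Tuba3b, an alpha-tubulin of the testis, were weak and were not higher in KO at any day. Tex101 had 10 and 10 counts in the WT libraries of day 2, 0 and 0 in KO-1, and 0 and 2 in KO-2, which is too few for more than the order of the groups. Tuba3b had 66 and 26 counts in WT, 10 and 2 in KO-1, and 4 and 0 in KO-2 at day 0, and a mean normalized count 8.73 times higher in WT, or 26.8 times without KO-1 replicate 1. At day 4 it had at most 4 counts in any library. Tuba3b is nearly identical to Tuba3a, so its reads may be split between the 2 genes and its values are uncertain.

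**Figure D2:**
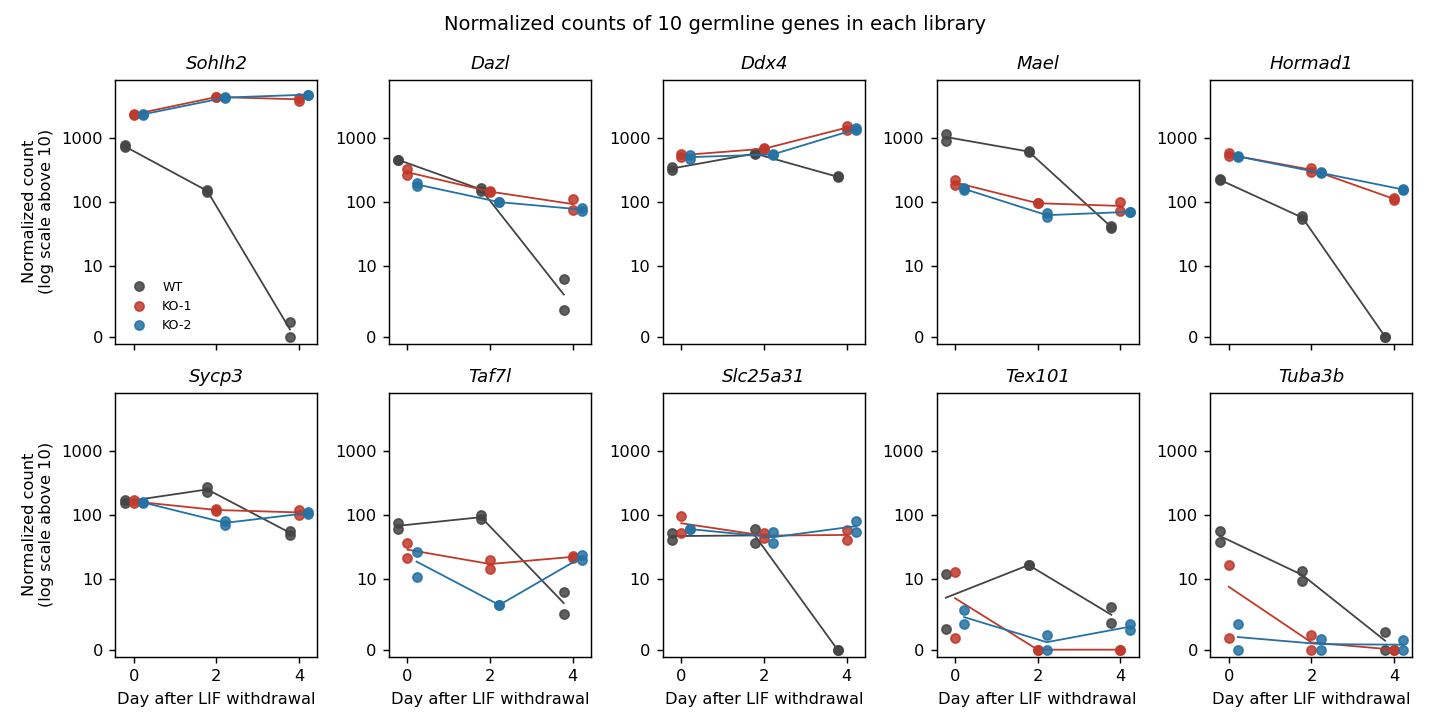
Normalized counts of the 10 genes in each of the 18 libraries (vertical axis, logarithmic above 10 and linear below) against the day after LIF withdrawal, with lines through the means of WT (grey), KO-1 (red) and KO-2 (blue). Sohlh2 was at 2236 or more in every KO library while WT had 2 and 0 counts at day 4, and for Mael and Taf7l the lines of WT and KO cross between day 2 and day 4.

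The course over days was described within each genotype. Both WT libraries of day 4 were below both of day 2 for all 10 genes, as they were for 37.9% of all genes. In KO, the same step put all libraries of day 4 above those of day 2 for Ddx4 and Taf7l and below for Hormad1, where 12.3% and 11.4% of all genes did so, and the other 7 genes overlapped. From day 0 to day 4, 9 of the 10 genes were lower in WT without overlap, against 38.9% of all genes, the exception being Tex101, whose libraries overlapped. In KO, 4 genes were lower over that interval (Dazl, Mael, Hormad1 and Sycp3), Sohlh2 and Ddx4 were higher, and 4 overlapped, with 21.1% of all genes lower and 19.4% higher. Separation of 4 from 4 KO libraries is stricter than that of 2 from 2 in WT, so the counts of the genotypes are not compared. As a share of its day 0 mean, the day 4 mean of Sohlh2 was 0.138% in WT and 188% in KO. For Mael the shares were 3.92% and 43.3%, and for Taf7l 9.80% and 93.1%. Ddx4 was kept best in WT among the 9 genes that were lower, at 74.2%, and reached 270.4% in KO. These values come from the libraries on which the genes were chosen and were not tested.

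**Figure D3:**
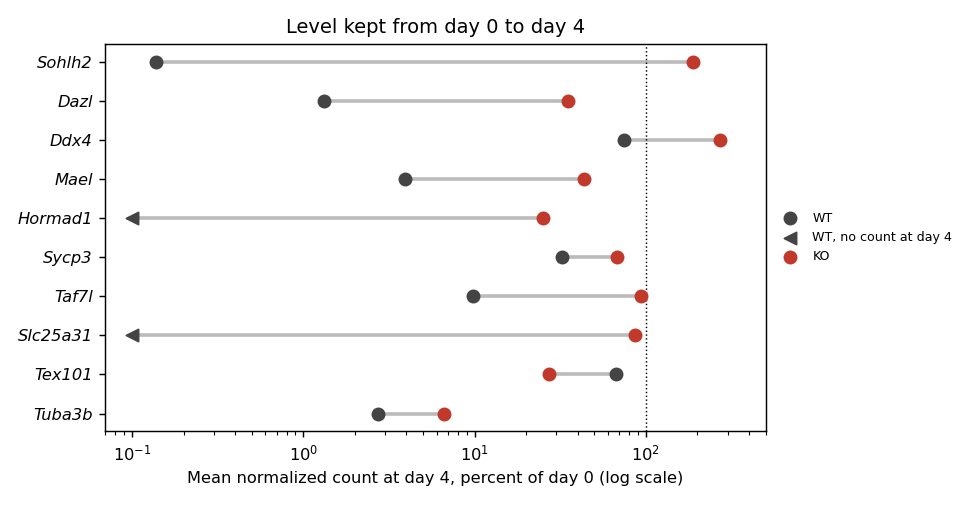
Mean normalized count at day 4 as a percentage of the mean at day 0 (logarithmic axis) for each gene in WT (grey) and KO (red), with triangles at the left edge where WT had no count at day 4. KO lies to the right of WT for every gene except Tex101, and the dotted line marks the day 0 level. The WT value of Sohlh2 at day 4 rested on 2 and 0 counts.

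Levels were compared between genes as normalized counts per kb of exon in GENCODE M21. In WT at day 0, Mael had the highest level, 588 ± 108 per kb (SD, n = 2), followed by Sohlh2 with 309 ± 15.1. Hormad1, Sycp3, Dazl and Ddx4 came next, between 109 and 127 per kb, with overlapping libraries for Hormad1 and Sycp3. Taf7l, Tuba3b and Slc25a31, from 21.7 to 29.8 per kb, each overlapped with the next in this order, and Tex101 was lowest. In KO at day 4, Sohlh2 stood at 1827 ± 192 per kb (SD, n = 4) and Ddx4 at 459.6 ± 35.6, each above every library of the genes below it. Sycp3 and Hormad1 overlapped there, as did Slc25a31 and Dazl. In WT at day 4, Ddx4 led with 80.9 ± 2.94 per kb (SD, n = 2) and Sohlh2 was among the lowest. Sohlh2 thus held the first place in KO at day 0 and day 4 and the second in WT at day 0.

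The difference between the 2 KO clones was not used to choose the genes and was tested across all 20703 genes with limma. None of the 10 genes was called for the clones at day 0, 2 or 4 (0 of 10 at each), where 0.029%, 0.0435% and 0.251% of all genes were called in either direction, so hardly any gene of the table passed. At an unadjusted p under 0.05 there were 1, 5 and 3 of the 10 genes, against 14.8%, 12.3% and 25.3% of all genes, and limma-voom also called 0 at each day. KO-1 was the higher clone, by however little, for 10, 9 and 5 of the genes at day 0, 2 and 4, and for 48.4%, 46.7% and 49.1% of all genes. The largest difference was that of Dazl at day 0, 287 in KO-1 and 185 in KO-2 on average (log2 0.24 ± 0.06, SE), with an adjusted p of 0.0581 by limma and 0.0375 to 0.577 over the alternatives. For Sohlh2 at day 4 it was -0.22 ± 0.06, with KO-2 the higher clone and an adjusted p of 0.0187 by limma and 0.00731 to 0.667 over the alternatives. In 7 of the 30 pairs of gene and day the clones differed by more than their mean did from WT. The log2 differences between clones and from WT were 0.16 and -0.11 for Dazl and 0.16 and 0.06 for Ddx4 at day 2, and -0.14 and -0.10 for Tex101 at day 4. In the other 4 (Sycp3 and Tex101 at day 0, Slc25a31 at day 2 and Tuba3b at day 4) both differences were under 0.05 in size. With 2 libraries per clone, a missed threshold does not show that the clones were alike.

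Across the 18 libraries the 10 genes did not move as one set. Of their 45 pairs, 32 had a positive Pearson r of the VST values. The highest were Mael with Taf7l (0.89) and Mael with Tuba3b (0.88), and Sohlh2 with Mael had -0.36. The libraries of a group share genotype, day and depth, so these values describe group means more than separate observations. The genes whose values were most like those of Sohlh2 among 13001 genes with a group mean of at least 50 normalized counts were Rlbp1 (r = 0.98), Cacna1a (0.98), Scrn1 (0.98), Epb41l4a (0.98) and Ckap2 (0.97), over 18 libraries. Rlbp1, for example, went in mean normalized count from 123 to 13.4 in WT and went from 187 to 349.7 in KO. The genes most like the mean of all 10 were Sfrp1 (0.96), Mkrn1 (0.96), Chka (0.93), Myh7b (0.93) and Syce1 (0.91), the last of which encodes a protein of the synaptonemal complex.

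The nearest measured genes on either side of each of the 10 genes were tested as well, 20 in all, whatever their level. Of these, 6 were called against WT at 1 day or more in the VST values, and 12.2% of all genes were called at any day. With limma-voom or thinned counts 10 were called, for which no share of all genes at any day was computed. Ccdc169 lies 9.09 kb before Sohlh2 on the same strand in GRCm38, and it was called higher in KO at every day, with mean normalized counts of 1.68 in WT and 137 in KO at day 0 (log2 fold change 0.84, adjusted p = 2.76e-10 by limma) and 0 in WT and 63.4 in KO at day 4 (log2 fold change 0.63, adjusted p = 2.87e-09 by limma). Reads from transcripts that span both genes were not separated from others. Dclk1, on the other side of Sohlh2, went the opposite way, with 349.9 in WT and 48.9 in KO at day 4 (log2 fold change -0.88, adjusted p = 9.19e-11 by limma). Both neighbours of Dazl were called lower in KO at day 2 and day 4, Rftn1 with 1568 in WT and 23.1 in KO at day 4 (log2 fold change -2.35, adjusted p = 1.74e-18 by limma) and Plcl2 with 349 in WT and 109 in KO (log2 fold change -0.61, adjusted p = 9.85e-09 by limma), at a time when Dazl itself was higher. Hspa4l, after Slc25a31, was called higher at day 4, with 177 in WT and 486 in KO (log2 fold change 0.62, adjusted p = 2.71e-08 by limma). Gpa33, beside Mael, was called higher at day 2, with 141 in WT and 409.6 in KO (log2 fold change 0.61, adjusted p = 3.91e-08 by limma). The other 14 neighbours, among them both of Ddx4, Hormad1, Sycp3, Taf7l, Tex101 and Tuba3b, were not called at any day in the VST values. Some of them, such as Hmgb1-ps5 and Cd177, were weak in every group, where the VST scale leaves little room to pass the threshold.

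To set the 10 genes beside others of the germline, 85 other germline genes present in the table were tested against WT. This list was also chosen with earlier results of these data known. Its calls and p-values are therefore a description and not an independent test of the germline programme. Of the 85, 5 were called higher in KO and 3 lower at day 0, and 11 and 3 at day 2. At day 4 they numbered 20 and 2, against the shares of all genes given above. Below, a gene said to rise or fall at a day was higher or lower in KO than in WT at that day. Changes over days are given as within WT or within KO. The lean to higher values at day 0 and day 2 depended on the scale. limma-voom on the recovered counts called 14 higher and 15 lower at day 0, 17 and 19 at day 2, and 38 and 6 at day 4. The median log2 difference of the 85 on the VST scale was -0.05, -0.00 and 0.17, with -0.02 over all genes at day 2 and values nearer to 0 at the other days. By limma-voom it was -0.24, -0.11 and 1.601, beside the medians of all genes given above. Within WT, 26 of the 85 fell and 1 rose from day 0 to day 4, where 6.16% of all genes fell and 7.68% rose. Within KO, 9 fell and 0 rose, where 3.06% and 3.44% of all genes did. At an unadjusted p under 0.05, 10 of the 85 were higher and 49 lower within KO, against 25.5% and 27.3% of all genes, and limma-voom called 6 higher and 40 lower, with 12.7% and 14.8% over all genes. Within WT limma-voom called 3 higher and 52 lower, with 17.1% and 17.6% over all genes.

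Among 16 genes of germ cell transcription, 4 rose at day 4 and 0 fell. By limma-voom 5 were higher and 4 lower at day 0, 4 and 5 at day 2, and 6 and 0 at day 4. Dmrt1, a transcription factor of spermatogonia, fell in KO at day 0, with 1177 ± 27.3 in WT (SD, n = 2) and 449 ± 110.1 in KO (SD, n = 4) (log2 fold change -0.84 ± 0.09 (SE), adjusted p = 6.41e-07 by limma), fell at day 2, with 869 ± 39.2 in WT (SD, n = 2) and 389.9 ± 37.8 in KO (SD, n = 4) (log2 fold change -0.64 ± 0.09 (SE), adjusted p = 9.12e-06 by limma), and rose at day 4, with 75.1 ± 30.4 in WT (SD, n = 2) and 290.3 ± 58.3 in KO (SD, n = 4) (log2 fold change 0.63 ± 0.09 (SE), adjusted p = 1.04e-05 by limma). Its difference from WT was more positive by 1.47 at day 4 than at day 0 (log2, adjusted p = 2.32e-08 for the interaction in limma), where 2.81% of all genes passed as more positive and 4.13% as more negative. Stra8, which starts meiosis, fell at day 0, with normalized counts of 353 and 335 in WT, 28.9 and 27.01 in KO-1, and 10.6 and 31.8 in KO-2, and was near 0 in both genotypes afterwards. The X-linked homeobox genes Rhox2a and Rhox5 rose at all 3 days, and Rhox2a had at most 6 counts in any WT library. Rfx2, a factor of ciliated and spermatogenic cells, rose at day 2 and day 4, by 0.76 and 0.67 (log2).

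Among the 21 genes of the piRNA pathway and germ granules, Piwil2, a PIWI protein that binds piRNAs, had normalized counts at day 4 of 22.1 and 22.7 in WT, 1292 and 1243 in KO-1, and 1055 and 1150.1 in KO-2 (log2 fold change 2.06 ± 0.07 (SE), adjusted p = 1.34e-15 by limma). It had also risen at day 0 and day 2, by 1.11 and 1.31 (log2). Rnf17 rose at all 3 days, Tdrd12 at day 2 and day 4, and Stk31 and Tex19.1 at day 4, when 5 of the 21 rose. By limma-voom 5 were higher and 4 lower at day 0, 5 and 7 at day 2, and 12 and 3 at day 4. Mov10l1, the helicase that starts piRNA production, followed the same order of the groups as Mael. It fell at day 0 with 441 ± 4.78 in WT (SD, n = 2) and 77.6 ± 16.5 in KO (SD, n = 4) (log2 fold change -0.90 ± 0.05 (SE), adjusted p = 2.77e-10 by limma) and at day 2 (log2 -0.75), and at day 4 had 4.03 and 15.2 in WT, 50.7 and 33.3 in KO-1, and 35.00 and 33.7 in KO-2. Tdrd1 passed at day 2 alone, with a log2 difference of -0.80. Tdrd5 and Tdrd7 fell at day 4, in Tdrd5 with 501 ± 22.4 in WT (SD, n = 2) and 28.2 ± 10.3 in KO (SD, n = 4) (log2 fold change -1.27 ± 0.06 (SE), adjusted p = 5.2e-13 by limma). Tdrd5 also rose within WT from day 0 to day 4 and was not called within KO.

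Of 30 meiosis genes, 0 passed at day 0, 3 rose at day 2 and 7 rose at day 4, with 0 falls at each day in the VST values. limma-voom called 3 higher and 4 lower at day 0, 6 and 6 at day 2, and 15 and 1 at day 4. At an unadjusted p under 0.05, 6 were higher and 9 lower at day 0, 10 and 12 at day 2, and 18 and 3 at day 4. Of all genes, 19.6% were higher and 19.7% lower by that measure at day 0, 24.4% and 27.9% at day 2, and 21.3% and 22.9% at day 4. Hsf2bp, which acts in meiotic recombination, had 10.7 ± 0.921 in WT (SD, n = 2) and 513 ± 149 in KO (SD, n = 4) at day 4 (log2 fold change 1.43 ± 0.11 (SE), adjusted p = 6.69e-10 by limma). The others that rose at day 4 were Tex11, Tex15, Rec8, Meioc, Tex14 and Rec114, by 0.59 to 1.03 (log2), and those that rose at day 2 were Hsf2bp, Tex11 and Smc1b. Rec8 encodes the meiotic cohesin subunit. Tex15 at day 4 had normalized counts of 774 and 465 in KO-1, and 293 and 317 in KO-2. Among 12 spermatogenic genes, Magea4 rose at all 3 days and Xlr3a at day 2 and day 4, and both WT libraries had 0 counts of Magea4 at day 2 and day 4. The level of Xlr3a differed between the clones. Its normalized counts were 310 and 358 in KO-1 and 118 and 119 in KO-2 at day 2. At day 4 they were 170 and 154 in KO-1 and 74.9 and 56.5 in KO-2. Among 6 oocyte genes, Zp3, which encodes a protein of the egg coat, and Ooep rose at day 4, by 0.61 and 0.76 (log2).

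**Figure D4:**
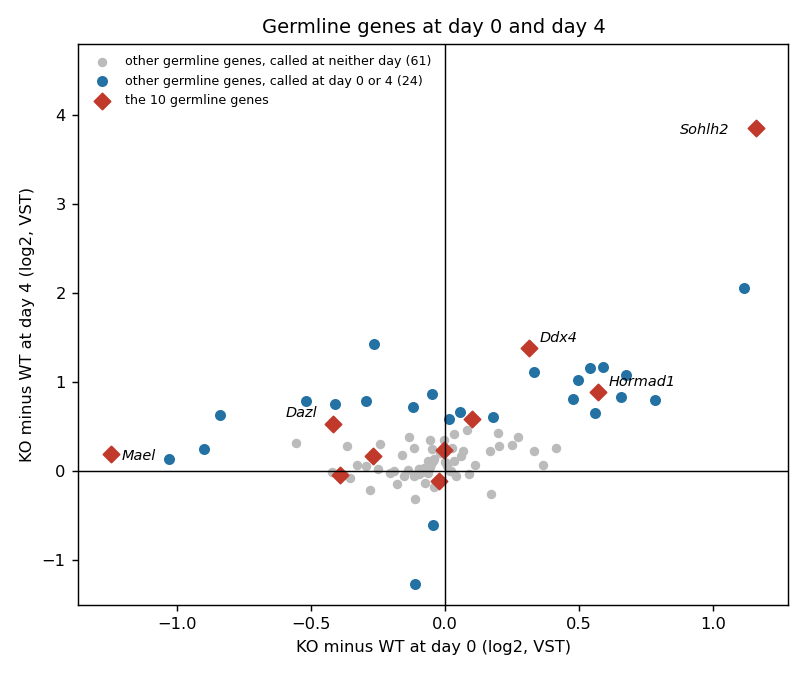
Difference between KO and WT (log2, VST) at day 0 (horizontal axis) and day 4 (vertical axis) for the 10 genes (red diamonds) and 85 other germline genes (blue where called at day 0 or day 4, 24 genes, and grey where called at neither, 61 genes). Of the named diamonds, Sohlh2, Ddx4 and Hormad1 are to the right of 0, and Dazl and Mael to the left, and all of these lie above 0 at day 4.

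Factors known to silence germline genes were examined for their own transcripts, together with Tet1, Tet2 and Tet3, which act in the removal of DNA methylation. All of these are counted under silencing factors below, though the Tet genes do not belong there by function. Of the 15 genes of the Polycomb complex that contains MGA and E2F6, 0 were called at any day in KO, with limma-voom calling 1, 0 and 2, and at an unadjusted p under 0.05 there were 3 higher and 3 lower at day 0, 2 and 6 at day 2, and 3 and 7 at day 4, beside the shares of all genes given with the meiosis genes. Of 10 genes of H3K9 and H3K4 methylation, Atf7ip, a partner of SETDB1, rose at day 2 and day 4, at day 4 with 787 ± 75.8 in WT (SD, n = 2) and 2181 ± 250.3 in KO (SD, n = 4) (log2 fold change 1.03 ± 0.09 (SE), adjusted p = 9.38e-09 by limma). The 10 genes of DNA methylation and its removal showed 1 rise (Dnmt3b) at day 0, 3 rises (Dnmt3l, Tet3 and Zfp57) and 1 fall at day 2 and 5 rises at day 4. The shares of all genes were 1.73% higher and 0.879% lower at day 0, and 4.01% and 2.37% at day 2. At day 4 they were 3.67% and 3.91%. By limma-voom 1 was higher and 0 lower at day 0, 3 and 1 at day 2, and 7 and 0 at day 4. The shares of all genes by limma-voom are those given for the 10 germline genes. Dnmt3b, a de novo methyltransferase, had normalized counts at day 2 of 42343 and 45174 in WT, 27528 and 29324 in KO-1, and 26765 and 28101 in KO-2 (log2 -0.64, adjusted p = 7.09e-07 by limma), lower in every KO library. At day 4 it had 5919 and 5640.3 in WT, 21062 and 20040.0 in KO-1, and 17612 and 18055 in KO-2 (log2 1.62, adjusted p = 3.07e-13 by limma), higher in every KO library. Dnmt3a and Dnmt3l, the cofactor of both enzymes, were also higher in KO than in WT at day 4, by 1.26 and 2.02 (log2). So were Tet1 and Tet3, which oxidize methylated cytosine. Within KO, every library of day 4 was below those of day 2 for Dnmt3a and Dnmt3l. Tet1 differed between the clones at day 4, with normalized counts of 4021 and 3146 in KO-1, and 1904 and 2088 in KO-2. Transcript levels do not show the methylation of the promoters, which was not analysed here.

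Markers of other cell states moved with the genotype and the day, and their part in the results was not tested. The 9 measured of 12 markers of cells that resemble the early cleavage embryo (Zscan4 genes and others) had a summed normalized count of 606 to 706 in WT and 228 to 295 in KO at day 0, 773 to 886 and 88.4 to 122 at day 2, and 34.1 to 36.2 and 17.9 to 31.5 at day 4. Zscan4 genes were the most abundant of them in every group, and Zscan4c and Zscan4f fell in KO at day 2 in the VST values, while by limma-voom 6, 8 and 0 of the 9 were lower in the order of the days. The sum was thus higher in WT at all 3 days without overlap, also at day 4, when it was low in both genotypes and Mael and Taf7l were higher in KO. The 8 markers of primordial germ cells, led by Alpl, summed to 7764 to 7792 in WT and 8324 to 9087 in KO at day 0, 1722 to 1974 and 4772 to 5077 at day 2, and 1082 to 1094 and 3432 to 4072 at day 4, with 1, 4 and 3 of the 8 called higher and 0 lower in the VST values at day 0, 2 and 4, and 2, 7 and 6 higher and 1, 0 and 0 lower by limma-voom. The shares of all genes called on either scale are those given for the 10 genes. Most of these markers are also expressed in mESCs. The labelled cell type was checked at day 0, where all 8 pluripotency markers were detected in every library and summed to 86125 to 88139 in WT and 86845 to 91602 in KO. At day 2 and day 4, 6 of them (Nanog, Sox2, Klf4, Zfp42, Esrrb and Tfcp2l1) were higher in KO and 1 was lower, Pou5f1 at day 2 and Tdgf1 at day 4.

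Fibroblast markers, of which 8 of 10 were in the table with Col1a1 the most abundant, summed to 3061 to 3155 in WT and 4469 to 5256 in KO at day 0, and at that day Col1a1, Col1a2 and Col3a1 rose in KO and Pdgfrb fell. Thy1 fell at day 2 and Col1a1 and Pdgfrb at day 4. At day 2 the sums were 1013 to 1170.0 in WT and 567 to 725 in KO. At day 4 the sums were 2647 to 2768 in WT and 565 to 1263 in KO. At most 2 of the 8 were at 0 counts in any library. The feeder cells present at day 0 and fibroblast-like cells formed during differentiation carry the same markers and cannot be told apart in these libraries.

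**Figure D5:**
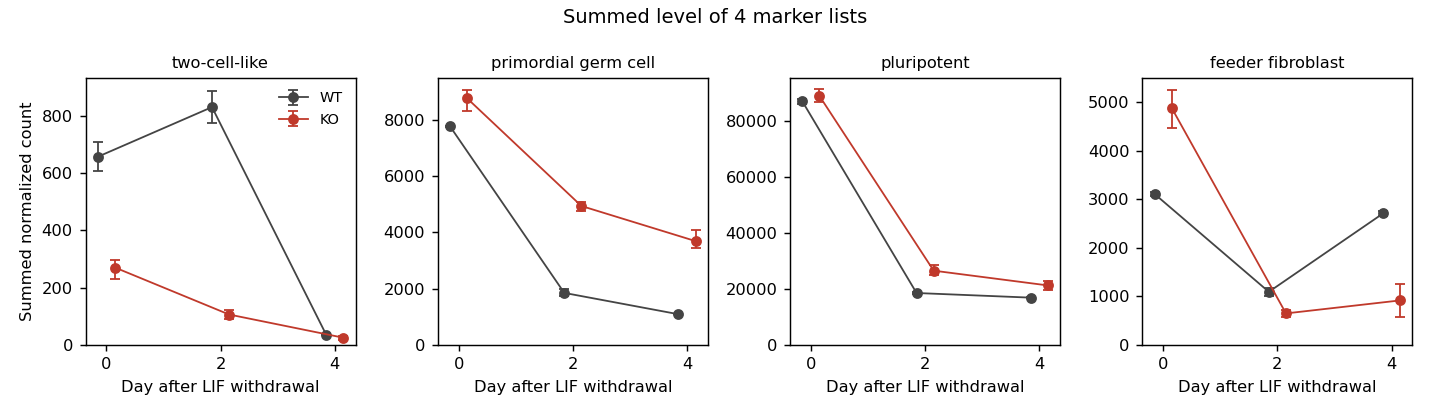
Summed normalized counts of the 4 marker lists (vertical axes from 0) against the day after LIF withdrawal, with WT in grey and KO in red. Points are means of 2 WT or 4 KO libraries and bars span the lowest to the highest library. The sum of the list led by Zscan4 genes (first panel) was higher in WT at all 3 days, at day 4 with low sums in both genotypes, and that of primordial germ cell markers was higher in KO at all 3 days.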

How the data were processed

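RNA-seq libraries were made from polyA RNA with an unstranded kit. Per the labels and the methods of the study, the authors trimmed reads with Trim Galore 0.6.7, aligned them to mm39 with STAR 2.7.11a, counted primary reads without duplicates on exons with featureCounts 2.0.6 and transformed the counts with DESeq2 1.42.0. The deposited values are variance stabilized (VST) on a log2 scale for 20703 genes, where 8.36 stands for a count of 0. Inverting them from that floor gave whole counts (tolerance 0.01) for 100% of the entries, with the authors' size factors. The VST values of 6 groups (genotype by day) were fitted with limma 3.58.1 (R 4.3.3, trended prior), and p-values were adjusted by Benjamini-Hochberg across the whole table. A gene was called at an adjusted p below 0.01 with a log2 fold change exceeding 0.58 in size. Clones were compared in a fit of 9 groups. The recovered counts were fitted with limma-voom. Both fits were tested on simulated counts with known changes, of which limma on VST values missed more than limma-voom.

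The members, gene lists and tests were chosen with earlier results of these data known. Named from the lists were genes called at any day, at most 5 per direction and group by absolute log2 fold change, with both neighbours of each member, and the 5 genes best correlated with Sohlh2 and with the mean of the members. Of the lists, 85 of 106 other germline genes, 35 of 35 silencing factors and 33 of 38 markers were in the table. Neighbours came from the RefSeq gene order, in which 18789 genes (90.8%) were found by symbol. Exon lengths (GENCODE M21) and promoters (RefSeq) are of GRCm38, another build than mm39. Plots were made with matplotlib 3.10.9 (Python 3.11.15). Alternatives were limma-voom, log2(normalized count + 1), counts thinned to 1 depth, centring on the median, a filter at the 25th percentile, each day or clone alone, a replicate block and each of the 18 libraries left out. With 4 KO against 2 WT libraries, an exact permutation test cannot go below p = 0.0667, so none was used.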

Additional observations from a re-analysis of the deposited data

Results flagged for a closer look

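In 3 of 30 groups of 4 KO libraries, 1 library stood apart from the rest by the gap to its nearest neighbour divided by the range, which exceeds the limit by chance in about 1 of 20 groups. They were Mael at day 4 (0.881, from a KO-1 library of 98.7 normalized counts), Tex101 at day 2 (1.00, 1 library with 2 counts and the rest at 0) and Tuba3b at day 4 (1.00, likewise).

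For 4 of the members, every KO library lay on one side of WT at one day and on the other side at day 4, which was not tested as a difference. The difference from WT (log2, VST) was more positive at day 4 than at day 2 by 0.64 for Dazl, 1.33 for Mael, 0.69 for Sycp3 and 0.66 for Taf7l. Against day 0 it was more positive by 0.94 for Dazl, 1.44 for Mael and 0.44 for Taf7l.

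Of 29 named genes of the other germline and silencing lists, the difference from WT at day 4 differed from that at day 0 in 19 by the interaction term of limma, where 2.81% of all genes passed as more positive at day 4 and 4.13% as more negative. The 29 were named because they were called at some day, with more calls on the higher side at day 4 than at day 0, so this count follows in part from their choice. Among germ cell transcription and piRNA genes the values (log2, day 4 minus day 0) were 1.47 for Dmrt1, 1.16 for Stra8, 0.61 for Rfx2, 1.15 for Mov10l1, 0.95 for Piwil2, 0.84 for Tex19.1, 0.78 for Stk31, 0.63 for Tdrd12, 0.59 for Rnf17 and -1.16 for Tdrd5, the 1 gene that was more negative. Among meiosis and oocyte genes they were 1.69 for Hsf2bp, 1.31 for Meioc, 0.92 for Tex15 and 1.17 for Ooep. Among silencing factors they were 1.65 for Dnmt3l, 1.14 for Dnmt3a, 0.95 for Dnmt3b and 0.86 for Atf7ip. In the same list, Tet1, which acts in the removal of DNA methylation, had 1.06.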

How the results depend on the processing

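The counts depended most on the scale of the values. Members past the threshold on the higher side in KO, a count that is no test of them, at day 0 numbered 1 in the VST fit, 2 with KO-1 alone or after centring on the median, and 3 with limma-voom, thinned counts or log2(normalized count + 1). On the lower side they numbered 1 at day 0 and 1 at day 2, and 4 and 5 with limma-voom. At day 4 those on the higher side numbered 4, and 8 with log2(normalized count + 1). Other germline genes called in KO numbered 8 at day 0 (29 with limma-voom, 28 with thinned counts, 22 with log2(normalized count + 1)), 14 at day 2 (36, 35 and 38) and 22 at day 4 (44, 40 and 44). For day 4 against day 0 the numbers were 27 in WT (55, 51 and 56) and 9 in KO (46, 42 and 43). Called silencing factors numbered 1 at day 0 (3 with each of these), 6 at day 4 (10 with each) and 5 at day 2 (3 with KO-1 alone). Called neighbours numbered 6, and 10 with limma-voom or thinned counts. No result changed its direction past the threshold under these alternatives. By construction, the VST compresses weak genes more than the other scales do.

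With each library left out in turn, members higher in KO ranged from 1 to 2 at day 0, 2 to 2 at day 2 and 3 to 4 at day 4, and members called between clones stayed at 0. Other germline genes ranged from 7 to 9, 13 to 16 and 20 to 22 at the 3 days, and from 27 to 28 in WT and 6 to 9 in KO for day 4 against day 0. Silencing factors ranged from 1 to 1, 3 to 5 and 5 to 8, and neighbours from 5 to 6. Members at day 0 numbered 2 without Nsd1-KO-2 replicate 1 or without WT replicate 1 of that day, and silencing factors at day 2 numbered 3 without Nsd1-KO-2 replicate 2 of that day. Among single named genes, 26 values fell under the threshold in an alternative and 1351 kept their side.

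No steady pairing by replicate number was seen, though it is not excluded. The correlation of the deviations of same-numbered libraries was -0.612 to 0.636 over 36 pairs of groups and 10351 genes, with a mean of -0.048. Between groups of the same day it was -0.497 to 0.476, with a mean of 0.070. With a replicate block the counts were the same: 1, 2 and 4 members higher, 0 between clones at each day, 8, 14 and 22 other germline genes, 27 and 9 over days, 1, 5 and 6 silencing factors and 6 neighbours. Depth limits Tex101, Tuba3b, and the WT values of day 2.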
